A study of Homo sapiens with 2 samples.

Results

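Telomerase adds telomeric repeats to chromosome ends. The promoters described here belong to 5 genes of the enzyme: TERT, which encodes the reverse transcriptase, TERC, which encodes the RNA that carries the template, and NHP2, NOP10 and GAR1, which encode small proteins of the H/ACA ribonucleoprotein that binds this RNA. The genes were chosen by name, and a MYC peak was assigned to a gene when its summit lay within 5 kb of the gene's start site in GRCh37. Each of the 5 genes had exactly 1 such peak, so 5 of the 17659 peaks in the list are described.

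The peaks came from ChIP-seq of MYC in TET21 cells, a human neuroblastoma line derived from SH-EP that carries a MYCN transgene which doxycycline is known to switch off. The cells expressed ectopic full-length MYC and had received 1 µg/mL doxycycline for 7 days before fixation in 1% formaldehyde for 10 min. A polyclonal rabbit antibody to MYC, made by the submitters, was used for the immunoprecipitation (2 µg). There was 1 ChIP library and 1 input library of the same cells, so the cells of both received the same treatment and no value has a replicate error. Ectopic and endogenous MYC may both be recovered by the antibody, on which the labels are silent, as they are on whether the cells were a clone or a pool, and no library of cells without ectopic MYC was analysed here. No expression values were analysed, so the label of the line was not checked against marker genes, and no peak below can be set beside the level of its gene.

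MYC binds DNA as a dimer with MAX and favours the E-box CACGTG. TERT is a textbook target of MYC, and in many cells the level of TERT limits the activity of telomerase. The H/ACA proteins have a wider task: with dyskerin, the pseudouridine synthase encoded by DKC1, they also sit on the small nucleolar RNAs that guide the modification of ribosomal RNA, so their genes belong both to telomere maintenance and to ribosome production. NHP2 and NOP10 join dyskerin in the core of the particle, and GAR1 joins last, in place of the assembly factor NAF1.

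The promoter sequences are shown because 3 of the 4 genes for which a window was at hand (TERT, NHP2, NOP10 and GAR1) carried the canonical E-box CACGTG. They are RefSeq windows on GRCh38.p14, from 250 bases before to 50 bases after a start, read 5′ to 3′ on the strand of the gene. The capitals mark CACGTG, or the variant CACGCG, which reads CGCGTG on the other strand. TERT is on the minus strand at chr5:1295019-1295318, NHP2 on the minus strand at chr5:178153836-178154135, NOP10 on the minus strand at chr15:34343087-34343386, and the window of the second GAR1 start on the plus strand at chr4:109815512-109815811.
TERT: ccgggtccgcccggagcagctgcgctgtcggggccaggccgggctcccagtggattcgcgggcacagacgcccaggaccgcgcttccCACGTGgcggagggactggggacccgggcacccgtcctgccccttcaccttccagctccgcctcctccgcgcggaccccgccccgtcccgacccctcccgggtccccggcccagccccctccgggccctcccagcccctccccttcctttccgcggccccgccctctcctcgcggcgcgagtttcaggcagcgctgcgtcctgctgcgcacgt
NHP2: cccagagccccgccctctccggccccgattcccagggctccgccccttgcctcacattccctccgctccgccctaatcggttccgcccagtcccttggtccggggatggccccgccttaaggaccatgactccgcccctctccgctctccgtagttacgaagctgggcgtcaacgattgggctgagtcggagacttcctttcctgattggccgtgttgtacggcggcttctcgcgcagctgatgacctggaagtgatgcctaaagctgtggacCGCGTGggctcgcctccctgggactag
NOP10: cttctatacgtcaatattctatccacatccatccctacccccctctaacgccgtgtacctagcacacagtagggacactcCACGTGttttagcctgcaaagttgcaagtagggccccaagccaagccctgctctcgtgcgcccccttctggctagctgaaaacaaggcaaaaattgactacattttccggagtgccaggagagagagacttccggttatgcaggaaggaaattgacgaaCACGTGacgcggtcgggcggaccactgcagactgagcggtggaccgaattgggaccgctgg
GAR1: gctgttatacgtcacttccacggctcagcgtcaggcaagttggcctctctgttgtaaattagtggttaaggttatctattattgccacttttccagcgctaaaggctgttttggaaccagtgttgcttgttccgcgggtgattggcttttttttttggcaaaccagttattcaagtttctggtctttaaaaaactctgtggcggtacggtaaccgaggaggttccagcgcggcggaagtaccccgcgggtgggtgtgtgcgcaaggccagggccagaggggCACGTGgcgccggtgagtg

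The TERT window held 1 canonical E-box, at bases -163 to -158 from the RefSeq start, and the NOP10 window held 2, at bases -170 to -165 and -11 to -6. The TERT window ends in CACGT, the motif without its last base. The base beyond the window was not read, so a copy across this edge would not be counted. GAR1 has 2 RefSeq starts, 252 bp apart. The window of the upstream one held no CACGTG, and that of the downstream one held 1, at bases 32 to 37 after its start. NHP2 had only the variant, at bases 24 to 29 after its start. Of all 35116 RefSeq windows of this length, 7.26% held CACGTG and 0.664% held at least 2 copies. Counted by gene, CACGTG was found in any window of 3 of the 4 genes and in 8.77% of 27305 genes. The canonical motif is its own reverse complement, so it was counted once for both strands, while the variant was searched on both strands and occurred in 11.4% of all windows. With the variant included, all 4 genes had a match, as did 20.3% of all genes. With 4 genes, these shares only describe the sequences, and a match is not evidence of a bound site.

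**Figure D1:**
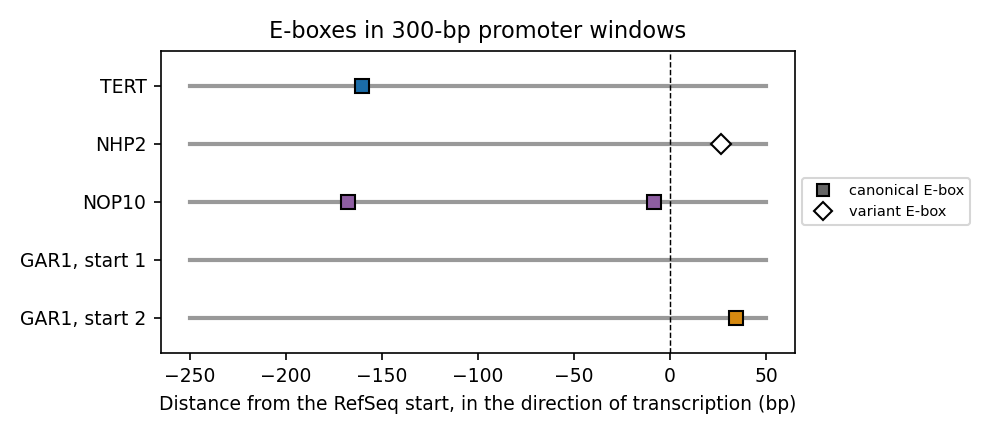
E-boxes in the RefSeq promoter windows of TERT, NHP2, NOP10 and the 2 starts of GAR1; the x axis is the distance from the start in bp in the direction of transcription, grey lines are the windows, filled squares are CACGTG and the open diamond is CACGCG. NOP10 has 2 canonical E-boxes, TERT and the downstream GAR1 start have 1 each, NHP2 has the variant and the upstream GAR1 start has neither. Only whole matches inside a window are drawn.

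The 5 windows of these genes varied in base composition. The TERT window was the richest in G and C, at 77.3%, with 36 CpG dinucleotides, and NHP2 followed with 65% and 25. The NOP10 window had 54.7% and 17 CpG, and the GAR1 windows had 55.7% and 52.7% with 18 CpG each. The medians of all RefSeq windows were 58.7% and 14 CpG, so TERT and NHP2 lay above the median in G and C while NOP10 and GAR1 lay below it, and the CpG count was above the median in all 5 windows.

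The same motifs were counted in the promoter windows of other telomerase and telomere genes. DKC1, the H/ACA assembly factor SHQ1, the telomerase transport factor WRAP53, the telomerase-associated protein TEP1, the assembly ATPases RUVBL1 and RUVBL2, the nuclease PARN, which trims the ends of TERC, and the shelterin genes TERF2IP, TINF2, ACD and POT1 had 16 windows in all. None of these 11 genes had CACGTG in any of its windows, and SHQ1 and RUVBL2 had CACGCG. Since 8.77% of all genes had CACGTG, 0 of 11 is close to the share over all genes. NAF1, TERF1 and TERF2 were also on the list. MYC peaks at these 14 genes were not analysed here.

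Of the 5 genes, all but TERC had a MYC summit within 1 kb of the start site. The peaks of TERT, NHP2 and NOP10 included the start site, and that of GAR1 began 140 bp past it. The summits for TERT, NHP2, NOP10 and GAR1 were within 285 bp of the start site, and that for TERC was 4445 bp away. Of positions spaced 1 kb apart along chromosomes 1 to 22 and X, 4.63% had a summit within 5 kb and 1.05% within 1 kb, against 5 of 5 and 4 of 5 start sites. On chromosomes 3, 4, 5 and 15, which carry the 5 genes, the share of positions within 5 kb was 3.69%. These positions are not confined to promoters. The share of all promoters with a MYC peak was not computed, since no GRCh37 annotation was used, so the counts do not show whether telomerase promoters were bound more often than other promoters.

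With the start sites used here, the summits near them also lay on the same side. TERT, NHP2 and NOP10 are read towards lower coordinates and their summits lay 35, 119 and 21 bp below the start site. GAR1 is read towards higher coordinates and its summit lay 285 bp above. All 4 summits were thus on the transcribed side of the start used here. The distances of 21 bp at NOP10 and 35 bp at TERT are small beside peaks 333 and 438 bp wide. Another annotated start could therefore change the side. How often summits at other promoters lie on this side was not computed. The canonical E-boxes counted in the windows of TERT and NOP10 lay before the RefSeq start, and that of GAR1 lay after it. A possible further copy at TERT, cut by the window edge after the start, was not determined. The start sites are GRCh37 positions and the windows are on GRCh38, and whether each start is the same base in both was not checked, so small distances between the 2 should not be compared.

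**Figure D2:**
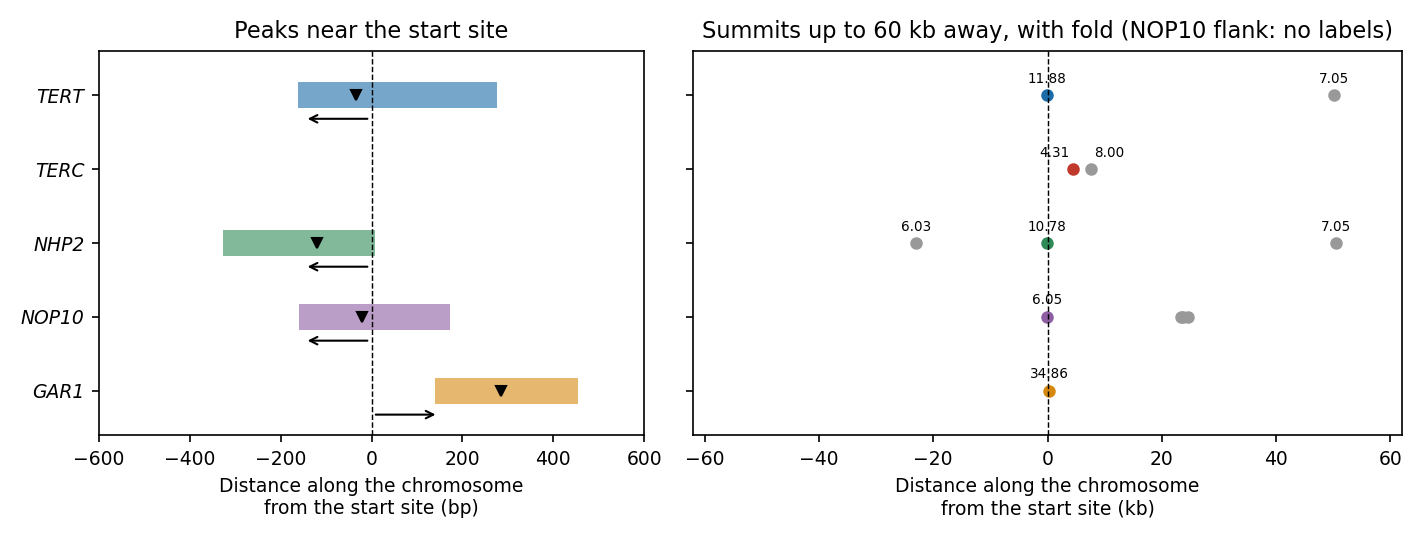
MYC peaks by distance along the chromosome from the GRCh37 start site (x axes, bp on the left and kb on the right; negative values are lower coordinates); bars are peaks, triangles and points are summits, grey points are peaks beyond 5 kb, numbers are the deposited folds, and arrows show the direction of transcription where the RefSeq windows give it. The peaks of TERT, NHP2 and NOP10 span the start site, that of GAR1 begins 140 bp past it, and TERC has no peak in the left panel.

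GAR1 carried the strongest MYC peak of the 5 genes. The peak at chr4:110736806-110737121 (GRCh37) had a pileup of 60 MYC ChIP fragments over its summit (95% Poisson interval 45.8 to 77.2) over a background of 0.75 expected fragments. The authors' deposited fold, the enrichment over the local background, is the pileup plus 1 divided by the background plus 1. This peak had a fold of 34.86 and a −log10 q of 85.56. It ranked 13 by fold and 29 by significance among the 17659 peaks and 1 by fold among the 650 peaks of chromosome 4. Of the 820 peaks with the same background within 0.0003 fragments, none of the others had as high a pileup, and their median was 11 fragments.

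The start site of GAR1 used here, 110736666, lay 140 bp below the lower edge of the peak. The peak stood alone: the nearest other summit was 85.6 kb away towards lower coordinates and 350 kb away towards higher ones, and 84.8% of listed peaks had a closer neighbour.

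TERT, the gene of the catalytic subunit, had the second highest fold. Its peak at chr5:1295001-1295438 had a pileup of 19 fragments (11.4 to 29.7) over a background of 0.683, and a deposited fold of 11.88 with a −log10 q of 17.85. The background is the lowest in the list, a floor shared by 1761 peaks within 0.0003 fragments, of which 91.1% had a lower pileup than TERT. By fold the peak exceeded 90.8% of the list, and by pileup 78.1%. It was 438 bp wide, the widest of the 5, and only 10.5% of listed peaks were wider. The start site at 1295162 lay inside the peak, 161 bp from its lower and 276 bp from its upper edge. No other summit lay within 50 kb.

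NHP2 had a peak of similar height. At chr5:177580641-177580976 the pileup was 24 fragments (15.4 to 35.7) over a background of 1.32, with a deposited fold of 10.78 and a −log10 q of 18.56. The peak exceeded 87.2% of the list by fold and 88.3% by pileup. Its start site, 177580968, was inside the peak but only 8 bp from its upper edge. Nearly all of the peak thus lay on the transcribed side of this start, and another annotated start could change that. The intervals of the pileups of TERT and NHP2 overlap. Those of their folds, with the background taken as known, also overlap (7.39 to 18.2 for TERT and 7.06 to 15.8 for NHP2). Whether E-box or GC content goes with the height of a peak was not tested.

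NOP10 ranked differently by pileup and by fold. The peak at chr15:34635219-34635551 had a pileup of 25 fragments (16.2 to 36.9), the second highest of the 5 genes and above 89.7% of the list. Its background was 3.30 expected fragments, 2.93 times the median of the list and above that of 98.2% of listed peaks. The deposited fold was therefore 6.05, below the list median of 6.40, with a −log10 q of 10.77. Only 210 peaks shared this background within 0.0003 fragments, with a median fold of 4.88, and 70.5% of them had a lower pileup. The start site at 34635378 was inside the peak and 21 bp from the summit, the closest of the 5. This background enters the divisor of the fold. The counting error of the background was not computed, and what sets it was not tested.

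TERC, the RNA component, had no peak at its start site. Its single peak within 5 kb, at chr3:169487262-169487469, had its summit 4445 bp above the start site at 169482848 and did not include it. TERC is known to be read towards lower coordinates, so this peak lies upstream, in the direction of the neighbouring gene ACTRT3 in RefSeq order. It was the weakest of the 5, with a pileup of 9 fragments (4.12 to 17.1) over a background of 1.32, a deposited fold of 4.31 and a −log10 q of 2.87. Only 7.11% of listed peaks had a lower fold. At this background, shared by 3449 peaks, the lowest pileup that entered the list was 7. The background at the TERC start itself was not measured, so the fragments needed there for a listed peak are not known. TERC and NHP2 shared this background within 0.0003 fragments, and their pileups of 9 and 24 have intervals that overlap slightly.

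A stronger peak lay just outside the 5 kb limit for TERC. At chr3:169490160-169490446, with its summit 7526 bp above the start site, it had a pileup of 16 fragments (9.15 to 26) and a fold of 8. Its summit was 3.08 kb from that of the weaker peak, and ACTRT3 and MYNN are the next protein-coding genes on that side. The nearest peak on the other side of TERC was 102 kb away. Which gene either peak belongs to was not determined, since start sites of ACTRT3 and MYNN on GRCh37 were not used.

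**Figure D3:**
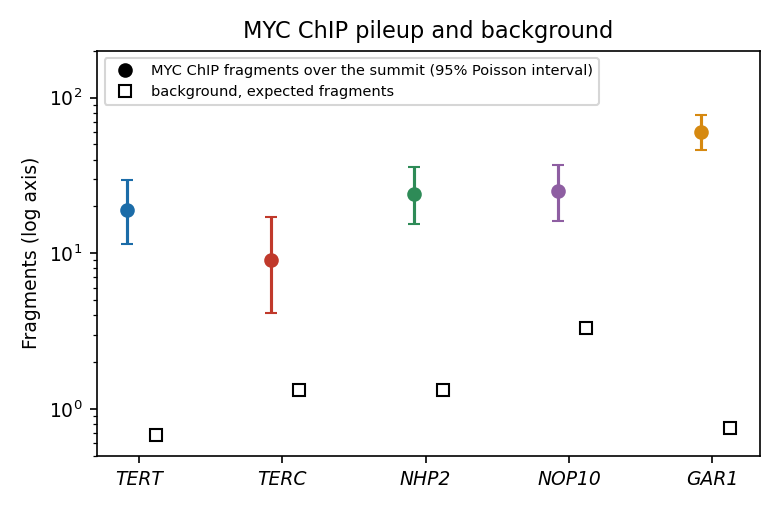
Number of MYC ChIP fragments over the summit of each gene's peak (filled points, bars are 95% Poisson intervals that cover counting error only) and the background expected there (open squares), on a log axis. GAR1, at 60 fragments, has an interval that lies above those of the other 4 genes, and NOP10 has the highest background, at 3.30.

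Across the 5 genes the pileup ranged from 9 fragments at TERC to 60 at GAR1 with a median of 24, against a median of 13 over the whole list. The fold ranged from 4.31 to 34.86 with a median of 10.78, against 6.40, and 3 of the 5 peaks reached a fold of 10 (GAR1, TERT and NHP2), compared with 15.4% of all peaks. The pileup at GAR1 was 2.40 times that at NOP10, 2.5 times that at NHP2, 3.16 times that at TERT and 6.67 times that at TERC. The interval of the GAR1 pileup, from 45.8, did not reach that of any of the others, whose highest bound was 36.9. The order of NOP10, NHP2 and TERT by pileup is not resolved at this depth, since their intervals overlap. Widths ran from 208 bp at TERC to 438 bp at TERT, with a list median of 226 bp. These intervals cover counting error within 1 library only, and they take fragments as independent molecules, which reads with no molecular identifier may not be. No test between genes was made.

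The background recovered for the 5 peaks differed, with no counting error computed for it. GAR1 and TERT had backgrounds of 0.75 and 0.683, NHP2 and TERC 1.32 each, and NOP10 3.30, against a list median of 1.13. By pileup NOP10 came before NHP2 and TERT, and by fold it came after both, but neither order is resolved. The interval of its fold, 4 to 8.82 with the background taken as known, overlaps those of TERT and NHP2. GAR1 came first and TERC last by either measure.

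**Figure D4:**
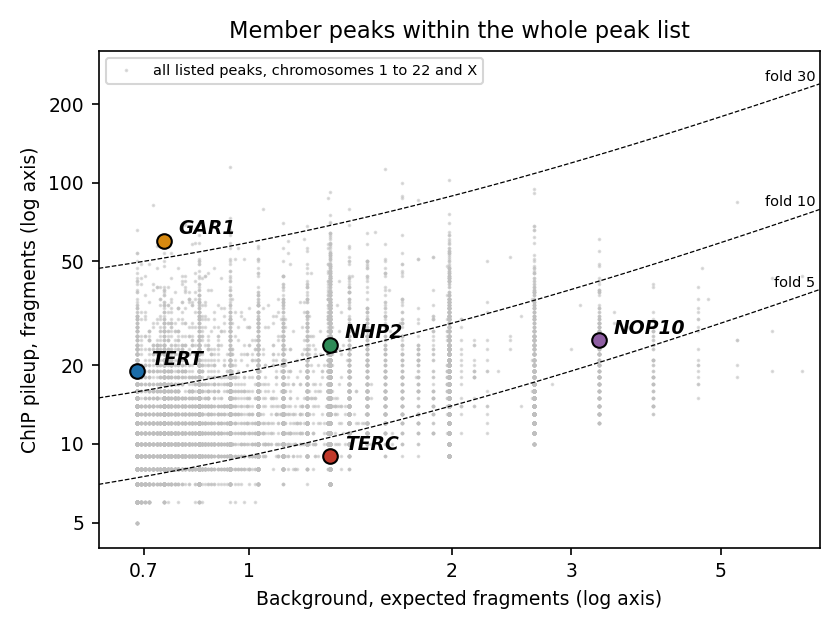
Pileup of MYC ChIP fragments against background for all listed peaks on chromosomes 1 to 22 and X (grey) and for the peaks of the 5 genes (coloured), both axes on a log scale; dashed lines join points of equal fold. GAR1 lies above the line of fold 30, TERT and NHP2 just above that of fold 10, NOP10 above that of fold 5 at a high background, and TERC below the line of fold 5.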

How the data were processed

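The file analysed was the authors' peak list for the MYC ChIP library. The input library had no file of its own. That it served as the control behind the background was assumed and not checked. Per the submitters' processing notes, which give neither roles nor an order, MACS2 2.1.0, Picard 2.7.1, STAR 2.5.2a and SAMtools 1.3 were used, with the build GRCh37. For each peak the authors deposited a fold (a ratio) over local background, −log10 p and −log10 q values, a summit position, and a score (for 100.0% of peaks, the −log10 q times 10 without its decimals). Peak numbers run to 17679 and the list holds 17659; the filter is not given in the sources used here. The depth of the libraries is unknown.

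Coordinates are 1-based. The pileup (fragments over the summit) and the background were recovered from fold and −log10 p by trying each whole pileup from 3 to 699 under the formulas of MACS2, a caller named in those notes; a pileup matched within 0.001 in 100.0% of peaks. Tested on data simulated under the same formulas, 100.0% of 2870 peaks were recovered, which checks the inversion only. The simulated pileups and backgrounds covered those of the 5 genes but not the highest of the list, 210 and 83.81. Calculations used Python 3.11.15, NumPy 2.4.6, pandas 2.3.3 and SciPy 1.17.1. Every gene of the set and each of its peaks is named. The genes and lists were chosen with earlier results of these data known. With 1 library of each kind, no test between groups was possible. Gene order and motif windows came from RefSeq on GRCh38.p14. Of the 5 genes, 4 matched a window, and of the 14 listed telomere genes, 11 did. Alternatives varied the distance, the peak threshold, the overlap and the motif.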

Additional observations from a re-analysis of the deposited data

How the results depend on the processing

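Taking the peak closest to the start site in place of the strongest could not change a fold, since each gene had 1 peak, so these 5 alternatives say nothing about stability. Of the other 13 alternatives, all on counts, 11 left the count within 1.5 times. Both that did not came from keeping only peaks at or above the upper quartile of −log10 q, which left 3 genes with a peak (TERT, NHP2 and GAR1) and 3 peaks. This follows from the stricter threshold, which the peaks of NOP10 and TERC did not reach. A limit of 1 or 2 kb removed TERC and left 4 genes, a limit of 10 kb gave 6 peaks at 5 genes, and any base of the peak within 5 kb gave the same counts as the summit. Counting CACGCG as well as CACGTG raised the genes with a motif from 3 to 4. Leaving out a replicate was not possible, and no p-value depends on a setting. No paired analysis was possible because each group held 1 library and no result came from a test. No peak with a pileup under 5 was listed anywhere, which limits what this depth can show.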

Other observations

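Beyond 5 kb from its start site, NOP10 had 3 peaks between 23.4 and 24.5 kb towards higher coordinates, with folds of 5.17, 5.94 and 4.70, on the side of NUTM1 and LPCAT4, and its next peak below lay 133 kb away. NHP2 had 1 peak 22997 bp below its start site, on the side of RMND5B, with a fold of 6.03, and 1 peak 50537 bp above it, on the side of GMCL2 and HNRNPAB, with a fold of 7.05. The nearest peak to TERT beyond its own was 50044 bp above the start site, on the side of CLPTM1L, with a fold of 7.05 and a pileup of 12 fragments (95% Poisson interval 6.2 to 21). Each of these folds was lower than that of the peak at the start site of the same gene. The intervals of the folds, with the background taken as known, overlap in every case, so these orders are not resolved. For NOP10 the fold of 5.94 has an interval of 3.04 to 10.7, against 4 to 8.82 for the peak at the start site. At TERC the order was the reverse, with a fold of 8 beyond 5 kb and 4.31 within it.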
